A study of Homo sapiens with 8 samples.

Results

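The nuclear-encoded subunits of respiratory complexes II, III and IV and of ATP synthase, together with cytochrome c, were examined as a fixed list of 39 genes among the 57992 genes counted. The list holds 4 genes of complex II, 9 of complex III, 10 of complex IV, 15 of ATP synthase (complex V) and CYCS. Its rule names subunits by complex and uses no measured value, but it was chosen with earlier results of these data known. RNAseq was performed on RKO, an established human colon carcinoma cell line in which beta-catenin signaling is intact. Cells received control siRNA (4 samples) or A20 siRNA (4 samples), and every sample was then stimulated with recombinant human wnt3a at 50 ng/mL for 24 hours. Unstimulated cells were not analysed here, so any difference is one between siRNAs in wnt3a-stimulated cells. The replicates carry numbers 1 to 4 in each group, and no source used here says that they came from separate cultures. The p-values therefore measure the spread between these samples, which may be technical.

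The respiratory chain passes electrons from reduced cofactors to oxygen and stores the energy as a proton gradient across the inner mitochondrial membrane, which ATP synthase then uses to make ATP. Complex II oxidises succinate and is built from nuclear genes alone. Complexes III and IV and ATP synthase are mosaics, in which a catalytic or proton-conducting core encoded by mitochondrial DNA is surrounded by subunits made in the cytosol and imported. Cytochrome c carries electrons from complex III to complex IV and also takes part in apoptosis once released from mitochondria.

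Between 21226451 and 34194273 reads were counted on genes per sample, and the groups overlapped in depth. TNFAIP3, the gene encoding A20, was at 5.47 ± 0.388 CPM (read counts scaled to library size by TMM, SD, n = 4) with control siRNA and 3.33 ± 0.215 CPM (SD, n = 4) with A20 siRNA, leaving 60.8% of the control level (two-sided exact permutation p = 0.0286, which is the lowest that 4 samples against 4 allow). Of 7 markers of colon epithelium 4 passed the filter on low counts (EPCAM, KRT8, KRT18 and CDX2). In contrast, KRT19 and CDH1 had no count in any sample, and VIL1 had at most 1 count in a sample. Markers of fibroblasts, leukocytes and endothelium summed to at most 0.143 CPM in any sample for each list. All 39 respiratory genes passed the filter, with 733 to 30984 reads per gene and sample, which gave standard errors between 0.02 and 0.05 for their log2 fold changes.

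Most respiratory subunit transcripts had a slightly lower fitted level with A20 siRNA, and few passed the test. The fitted fold change was below 1 for 35 of the 39 genes, where 48.4% of the 13412 genes tested were below 1. The levels ranged from 88.6% of control for COX8A, a subunit of complex IV, to 102.4% for SDHD, a membrane anchor of complex II. The median log2 fold change was -0.07 over the 39 genes and 0.0027 over all genes tested. With Benjamini-Hochberg adjustment over all genes tested, the quasi-likelihood test of edgeR called 3 of 39 lower at a threshold of 0.05, namely COX5B, COX8A and ATP5MC2, where 0.611% of all genes were called lower. None of the 39 was called higher by edgeR, DESeq2 or limma-voom, and 0.634% of all genes were called higher in edgeR. None was higher at an unadjusted p-value under 0.05 in edgeR, against 8.81% of all genes. At an unadjusted p-value under 0.05, 24 of 39 were lower, against 7.37% of all genes. In 7 of 39 the A20 siRNA samples all lay below the controls, against 3.90% of all genes. The opposite arrangement occurred in 0 of 39, against 3.71% of all genes. As these are bulk samples, less RNA per cell and fewer cells expressing a transcript cannot be told apart.

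The count of called genes rested on single libraries and on how transcript length was treated, and the share of all genes called lower moved with the libraries too. The count was 0 of 39 when control replicate 2, 3 or 4 or A20 siRNA replicate 3 or 4 was left out, where 0.0443% to 0.192% of all genes were called lower. It was 16 without control replicate 1 (3.18% of all genes), 9 without A20 siRNA replicate 1 (1.12%) and 8 without A20 siRNA replicate 2 (1.14%). With each sample corrected for its trend with exonic length, 5 of 39 were called (1.11% of all genes) and the median log2 fold change was -0.08. With length and GC content together, 4 were called (0.984%) and the median was again -0.08. With correction on the length of the MANE Select transcript (the reference transcript of each gene), an alternative chosen after seeing the data, 0 of 39 were called (0.805% of all genes), 30 of 39 had a fold change below 1 and the median log2 fold change was -0.03. The median stayed below 0 in all of these fits.

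**Figure D1:**
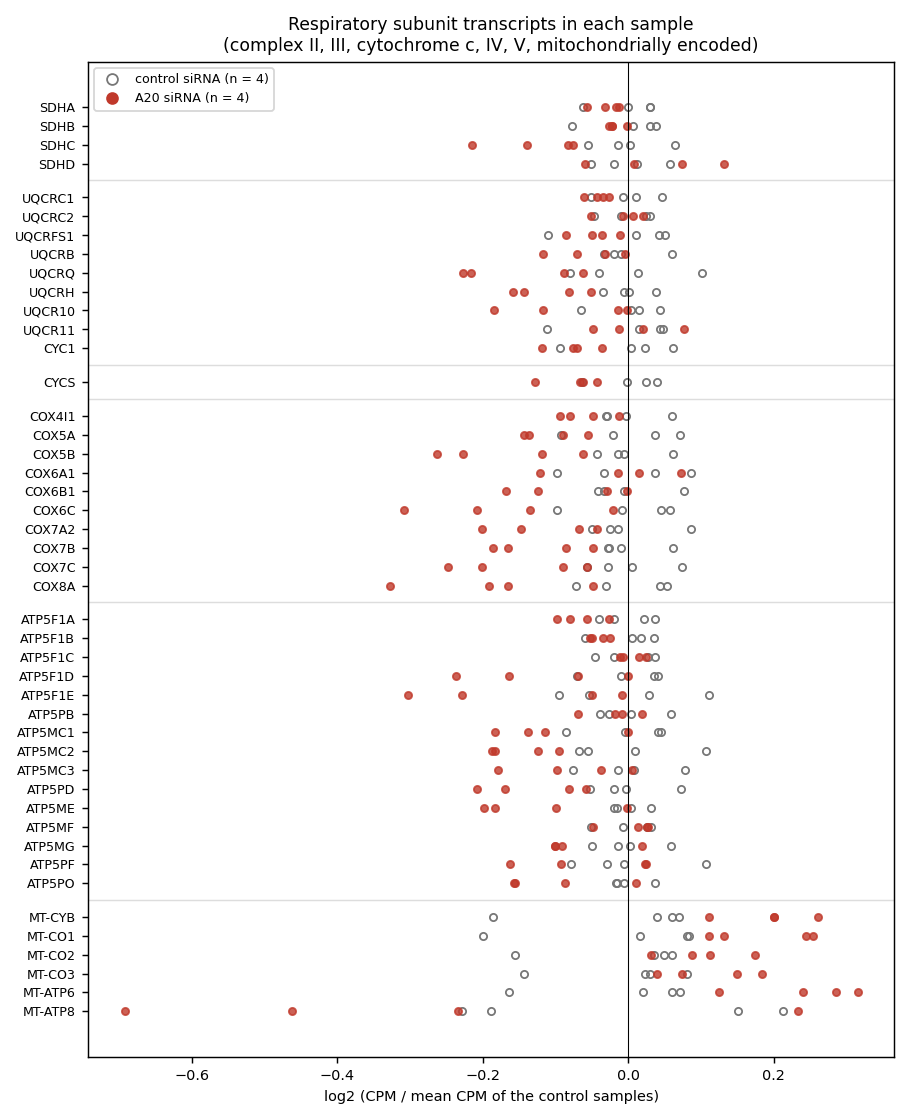
Level of each respiratory subunit transcript in each sample, as log2 of CPM over the mean of the 4 control samples (x axis), with genes grouped by complex on the y axis and the 6 mitochondrially encoded subunits at the bottom. Open circles are control siRNA and filled circles A20 siRNA samples (n = 4 each). For the nuclear genes the filled circles lie mostly to the left, least so in complex II, and in 7 of 39 genes they do not overlap with the open circles. For MT-CYB, MT-CO1 and MT-ATP6 they lie wholly to the right.

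Promoter sequence of the listed genes was also described. Of the 39 genes 31 had a promoter window in RefSeq (GRCh38.p14, 250 bases before to 50 after a start). Each window was searched on both strands for letters recognised by factors known to act on respiratory genes. The letters GCGCATGCG (NRF1) occurred in 6 of 31 genes, or 19.4%, against 3.11% of 15843 protein-coding genes and 1.92% of all 35116 windows. The letters CCGGAAGT (the ETS family, which includes GABPA) occurred in 9 of 31, or 29%, against 6.97% of protein-coding genes and 4.14% of all windows. The letters AAGATGGC (YY1) occurred in 5 of 31, or 16.1%, against 4.66% of protein-coding genes and 2.89% of all windows. None of the 3 was found in 14 of 31 genes. The median log2 fold change was -0.11 for the 9 genes with the ETS letters and -0.07 for the 22 without them. It was -0.03 for the 6 genes with the NRF1 letters and -0.07 for the 25 without. It was -0.04 for the 5 genes with the YY1 letters and -0.09 for the 26 without. These differences in fold change were not tested, and the genes with and without letters were not matched for transcript length. The protein-coding genes were not limited to those expressed in these samples. A match describes the sequence and is not a measured binding site.

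The 250 bases before the start are printed for the 3 genes that fell, for UQCRH, whose adjusted p-value was nearest above the threshold, and for SDHD, which had the highest fold change of the list and holds both NRF1 and ETS letters. Sequences run 5′ to 3′ on the strand of the gene, in lower case, with the matched letters in capitals. For ATP5MC2 the window is the one with a match among its 3 annotated starts.
COX5B (chr2:97645812-97646061, plus strand): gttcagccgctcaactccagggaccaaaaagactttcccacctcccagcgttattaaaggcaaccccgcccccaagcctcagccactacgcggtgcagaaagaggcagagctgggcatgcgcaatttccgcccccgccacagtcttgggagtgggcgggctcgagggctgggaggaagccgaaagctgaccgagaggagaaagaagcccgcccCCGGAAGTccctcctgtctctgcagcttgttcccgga
COX8A (chr11:63974370-63974619, plus strand): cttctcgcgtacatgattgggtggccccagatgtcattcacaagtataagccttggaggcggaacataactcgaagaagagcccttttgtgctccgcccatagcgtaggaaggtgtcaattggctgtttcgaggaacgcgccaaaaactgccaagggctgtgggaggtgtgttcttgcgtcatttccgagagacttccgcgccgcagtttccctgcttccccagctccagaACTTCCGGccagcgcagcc
UQCRH (chr1:46303448-46303697, plus strand): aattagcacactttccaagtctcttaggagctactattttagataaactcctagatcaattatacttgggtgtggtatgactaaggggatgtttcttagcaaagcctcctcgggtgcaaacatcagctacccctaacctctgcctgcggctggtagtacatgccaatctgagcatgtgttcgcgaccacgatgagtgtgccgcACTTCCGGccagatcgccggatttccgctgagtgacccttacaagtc
ATP5MC2 (chr12:53676084-53676333, minus strand): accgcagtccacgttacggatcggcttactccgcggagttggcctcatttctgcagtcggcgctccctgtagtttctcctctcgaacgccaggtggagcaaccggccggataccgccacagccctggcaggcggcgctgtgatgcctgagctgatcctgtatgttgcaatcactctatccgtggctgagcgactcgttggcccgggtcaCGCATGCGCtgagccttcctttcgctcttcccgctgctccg
SDHD (chr11:112086623-112086872, plus strand): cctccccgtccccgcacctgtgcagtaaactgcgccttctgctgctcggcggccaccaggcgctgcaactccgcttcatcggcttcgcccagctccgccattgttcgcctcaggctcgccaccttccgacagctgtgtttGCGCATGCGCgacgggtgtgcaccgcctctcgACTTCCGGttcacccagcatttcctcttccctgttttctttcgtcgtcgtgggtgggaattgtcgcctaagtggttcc
In COX5B a further ETS match begins 5 bases before the start and runs past it, and its last letters lie outside the stretch printed. The capitals in SDHD cover NRF1 letters on both strands, which begin 110 and 109 bases before the start.

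Complex IV (cytochrome c oxidase), which reduces oxygen to water, held 2 of the 3 genes that fell. Its nuclear subunits surround the mitochondrially encoded core and take part in its assembly and regulation. All 10 listed genes had a fold change below 1 (48.4% of all genes did), with a median log2 fold change of -0.11. Of the 10 genes 9 were lower at an unadjusted p-value under 0.05 (7.37% of all genes) and 2 at the adjusted threshold (0.611%). COX5B (ENSG00000135940, chromosome 2, 97646062 to 97648383), a subunit facing the matrix, was at 64.6, 65.8, 66.2 and 69.4 CPM in control replicates 1 to 4 and at 61.2, 63.7, 55.5 and 56.8 CPM in A20 siRNA replicates 1 to 4. The groups did not overlap, and A20 siRNA replicates 3 and 4 were the lowest. The log2 fold change was -0.16 ± 0.04 (SE, adjusted p = 0.0467). COX8A (ENSG00000176340, chromosome 11, 63974620 to 63976543), a short single-pass membrane subunit, was at 109.5, 119.4, 118.6 and 112.7 CPM with control siRNA and 111.2, 102.6, 91.7 and 100.7 CPM with A20 siRNA. Here A20 siRNA replicate 1 was above control replicate 1, so the groups overlapped. The log2 fold change was -0.17 ± 0.04 (SE, adjusted p = 0.0467). With the MANE Select length correction neither passed (COX5B, log2 fold change -0.10, adjusted p = 0.0828; COX8A, -0.10, adjusted p = 0.210). Neither passed in limma-voom (adjusted p = 0.0504 and 0.0529) or with at least 10 counts in every sample (0.0513 and 0.0529), and COX8A did not pass without A20 siRNA replicate 2 (edgeR, adjusted p = 0.0552).

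The other subunits of complex IV did not pass the adjusted threshold in edgeR as reported. COX7C, another single-pass membrane subunit, was at 159.22, 166.2, 162.4 and 174.3 CPM with control siRNA and 159.15, 155.5, 144.0 and 139.4 CPM with A20 siRNA. The highest A20 siRNA sample was just below the lowest control sample, and the adjusted p-value was 0.0547 in edgeR (log2 fold change -0.14). It was 0.0255 in DESeq2, which called COX7C lower, and COX7C passed in 9 of 19 alternatives. COX7B was also lower in every A20 siRNA sample than in any control sample (85.7 ± 2.55 and 78.8 ± 3.55 CPM, SD, n = 4 each; log2 fold change -0.11, adjusted p = 0.0752). COX6C had a log2 fold change of -0.16 (adjusted p = 0.0750), but it varied more between samples, from 128.1 to 142.6 CPM in controls and from 110.7 to 135.1 CPM with A20 siRNA. COX7A2 and COX5A, the latter a matrix-facing partner of COX4I1, had log2 fold changes of -0.11 and -0.10 (adjusted p = 0.124 and 0.102). COX6B1, which lies on the intermembrane side near the cytochrome c site, and COX4I1, the largest nuclear subunit, had -0.07 and -0.06 (adjusted p = 0.304 and 0.269). COX6A1 had the fold change nearest to 1 in the complex, at 48.2 ± 2.68 CPM in controls and 47.8 ± 2.66 CPM with A20 siRNA (SD, n = 4 each; log2 fold change -0.01 ± 0.04 SE, adjusted p = 0.921).

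**Figure D2:**
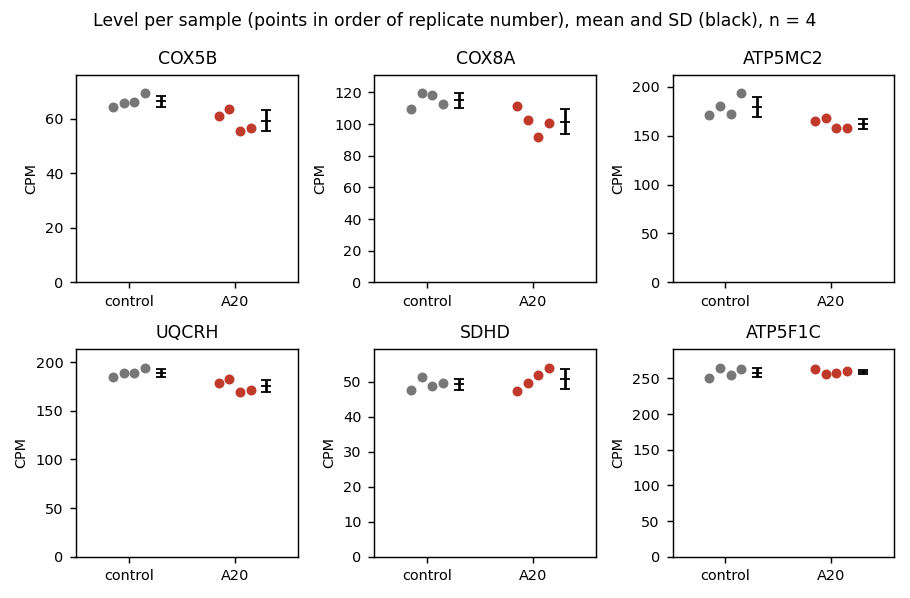
Level in CPM (y axis, from 0) of COX5B, COX8A, ATP5MC2, UQCRH, SDHD and ATP5F1C in the 4 control siRNA samples (grey) and the 4 A20 siRNA samples (red), in order of replicate number, with the mean and SD in black. The A20 siRNA samples of COX5B, ATP5MC2 and UQCRH all lie below the controls, those of COX8A overlap with them in A20 siRNA replicate 1, and the groups of SDHD and ATP5F1C overlap.

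ATP synthase consists of a membrane rotor, a stalk and the catalytic F1 head. Of its 15 listed genes 13 had a fold change below 1 (48.4% of all genes did). At an unadjusted p-value under 0.05, 10 of the 15 were lower (7.37% of all genes). ATP5MC2 alone was called lower at the adjusted threshold in edgeR (0.611% of all genes were). ATP5MC1, ATP5MC2 and ATP5MC3 encode the same mature c subunit of the rotor ring behind different import sequences. ATP5MC2 (ENSG00000135390, chromosome 12, 53632726 to 53677408) was at 171.0, 180.3, 172.5 and 193.0 CPM with control siRNA and at 164.5, 167.7, 157.9 and 157.4 CPM with A20 siRNA. The A20 siRNA samples all lay below the controls, with a log2 fold change of -0.14 ± 0.03 (SE, adjusted p = 0.0384). With the MANE Select length correction it was -0.08 (adjusted p = 0.0985). ATP5MC1 and ATP5MC3 had log2 fold changes of -0.10 and -0.07 (adjusted p = 0.174 and 0.307). Per kilobase of MANE Select transcript, ATP5MC2 made up 60.04% ± 1.03 of the 3 transcripts in controls and 59.2% ± 0.694 after A20 siRNA (SD, n = 4 each). ATP5MC1 made up 20.7% ± 0.576 and 20.9% ± 0.541, and ATP5MC3 19.3% ± 0.884 and 19.9% ± 0.407. The balance between the c subunit genes thus shifted by about the spread between replicates.

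No subunit of the catalytic head passed the adjusted threshold in edgeR, DESeq2 or limma-voom. ATP5F1B, the catalytic beta subunit, ranged from 888.0 to 948.2 CPM with control siRNA and from 892.6 to 909.8 CPM with A20 siRNA, and the groups overlapped (log2 fold change -0.04, adjusted p = 0.384). ATP5F1A, the alpha subunit, had a log2 fold change of -0.06 (adjusted p = 0.165). ATP5F1C, the gamma subunit that forms the central shaft, was at 258 ± 6.98 and 259 ± 3.11 CPM (SD, n = 4 each), with adjusted p = 0.938 for a log2 fold change of 0.0055 ± 0.02 (SE). The small stalk subunits ATP5F1D and ATP5F1E had log2 fold changes of -0.11 and -0.14 with adjusted p-values of 0.185 and 0.184. ATP5F1E had the largest standard error of the list (0.05), at 174.9, 185.2, 169.8 and 196.1 CPM with control siRNA and 180.5, 175.3, 147.1 and 154.9 CPM with A20 siRNA. In A20 siRNA replicates 1 and 2 it was within the control range, and in replicates 3 and 4 it was below it.

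In the peripheral stalk, which holds the head still, ATP5PD had a log2 fold change of -0.12 (adjusted p = 0.0706) and did not overlap between groups (88.2 to 96.2 CPM with control siRNA and 79.3 to 87.9 CPM with A20 siRNA). ATP5PO, the subunit that joins the stalk to the head, was at 34.5, 34.5, 34.8 and 35.8 CPM with control siRNA and 31.3, 31.3, 32.8 and 35.2 CPM with A20 siRNA (log2 fold change -0.10, adjusted p = 0.206). Its A20 siRNA replicate 4 was within the control range. ATP5PB and ATP5PF had log2 fold changes of -0.02 and -0.04 (adjusted p = 0.80 and 0.678). Of the small membrane subunits, ATP5ME and ATP5MG had -0.11 and -0.07 (adjusted p = 0.168 and 0.277), and ATP5MF was level at 107.6 and 107.9 CPM (log2 fold change 0.0069 ± 0.03 SE, adjusted p = 0.932).

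Complex III passes electrons from ubiquinol to cytochrome c. Of its 9 listed genes 8 had a fold change below 1 (48.4% of all genes did), and the median log2 fold change was -0.05. edgeR called 0 of the 9 and limma-voom 0, where 0.611% and 0.626% of all genes were called lower. DESeq2 called UQCRH and UQCRQ lower (0.805% of all genes). At an unadjusted p-value under 0.05 in edgeR, 3 of 9 were lower (UQCRH, UQCRQ and CYC1), against 7.37% of all genes. UQCRH, the acidic hinge subunit beside cytochrome c1, was at 184.7, 189.3, 188.4 and 194.3 CPM with control siRNA and 178.7, 182.5, 169.5 and 171.3 CPM with A20 siRNA. The groups did not overlap, and the adjusted p-value was 0.0508 (log2 fold change -0.11, standard error 0.03). UQCRQ, a small subunit next to cytochrome b, was at 117.4, 125.2, 120.7 and 133.1 CPM with control siRNA and 116.8, 118.9, 106.9 and 106.0 CPM with A20 siRNA (log2 fold change -0.14, adjusted p = 0.0718). Its A20 siRNA replicate 2 was above control replicate 1. The redox subunits were not called by any of these tools. CYC1, cytochrome c1, had a log2 fold change of -0.07 (adjusted p = 0.231) and UQCRFS1, the Rieske iron-sulfur protein, -0.04 (adjusted p = 0.571). The core proteins UQCRC1 and UQCRC2 had -0.04 and -0.0056 (adjusted p = 0.425 and 0.940). The small subunits UQCRB, UQCR10 and UQCR11 had -0.05, -0.07 and 0.0088 (adjusted p = 0.338, 0.359 and 0.941).

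CYCS, the electron carrier cytochrome c, was at 202.5, 217.7, 215.3 and 211.5 CPM with control siRNA and 202.9, 205.5, 202.2 and 193.8 CPM with A20 siRNA. Control replicate 1 was within the A20 siRNA range and the other controls were above it. The log2 fold change was -0.07 (standard error 0.03), with an unadjusted p-value of 0.0115 in edgeR and an adjusted p-value of 0.167.

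Complex II, the succinate dehydrogenase shared by the respiratory chain and the citric acid cycle, had the median nearest to 0 among the complexes, at -0.02. None of its 4 genes was called by edgeR, DESeq2 or limma-voom. At an unadjusted p-value under 0.05 in edgeR, 1 of 4 was lower (SDHC), against 7.37% of all genes. SDHC, a membrane anchor, was at 74.3, 76.4, 77.3 and 80.7 CPM with control siRNA and 73.2, 72.9, 66.5 and 70.1 CPM with A20 siRNA. The groups did not overlap (log2 fold change -0.12 ± 0.03 SE, adjusted p = 0.0706). SDHD, the other anchor, was at 47.6, 51.4, 48.7 and 49.8 CPM with control siRNA and 47.4, 49.6, 52.0 and 54.1 CPM with A20 siRNA. The groups overlapped, with a log2 fold change of 0.03 ± 0.04 (SE, adjusted p = 0.722). SDHA, the flavoprotein that oxidises succinate, and SDHB, the iron-sulfur subunit, had log2 fold changes of -0.03 and -0.02 (adjusted p = 0.626 and 0.810). The difference between complexes was not tested.

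Mitochondrially encoded subunits of complexes III to V were mostly higher with A20 siRNA. Of these 6 genes 3 were called higher (0.634% of all genes were) and 0 lower in edgeR, and their median log2 fold change was 0.15. MT-ATP6, the proton channel subunit of ATP synthase, rose from 1173 ± 85.8 to 1388 ± 79.2 CPM (SD, n = 4 each; log2 fold change 0.24, adjusted p = 0.0119). MT-CYB and MT-CO1, the cytochrome b of complex III and the oxygen-reducing subunit of complex IV, rose by log2 fold changes of 0.19 and 0.19 (adjusted p = 0.0333 and 0.0467). MT-CO2 and MT-CO3 had 0.10 and 0.11 (adjusted p = 0.176 and 0.128), and MT-ATP8, whose reading frame overlaps with that of MT-ATP6, had -0.23 ± 0.13 (SE, adjusted p = 0.397). These calls also rested on single libraries. Of the 6 genes 1 was called higher without control replicate 2, 3 or 4 or A20 siRNA replicate 4. In those fits 9 of 13567 to 26 of 13537 genes tested were called higher. DESeq2 also called 1 of the 6 higher (80 of 13412 genes tested). Without A20 siRNA replicate 3 it was 0 (6 of 13542), and MT-ATP6 had an adjusted p-value of 0.0752. Without A20 siRNA replicate 1 there were 2 (49 of 13532), and without the filter on low counts there were 5 (314 of 28754). Leaving out control replicate 2, the lowest control, took the log2 fold change of MT-CYB to 0.14 and that of MT-CO1 to 0.12. The libraries were made by poly(A) capture, and its part in the mitochondrial values was not tested. These genes have no MANE Select transcript, so the MANE Select length correction applied no length trend to them. With correction on exonic length, MT-CYB and MT-CO1 had log2 fold changes of 0.205 and 0.202. In that fit 3 of the 6 genes were again called higher, and 90 of the 13412 genes tested were. Summed, the 39 nuclear genes were at 6033, 6347, 6189 and 6424 CPM in control replicates 1 to 4 and at 6059, 6101, 5832 and 5803 CPM with A20 siRNA. Control replicate 1 was within the A20 siRNA range, so the summed levels overlapped. The 6 mitochondrial genes summed to 7796, 6598, 7610 and 7798 CPM with control siRNA and 8685, 7895, 8215 and 8617 CPM with A20 siRNA, where the groups did not overlap.

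Among genes that build the complexes, COA6 and NDUFA4 passed the test. Of 55 assembly factors, other subunits and isoforms matched in the files, 49 were tested. At an adjusted p-value under 0.05 in edgeR, 2 fell (0.611% of all genes did) and 0 rose (0.634%), with a median log2 fold change of -0.04. Of the 49 genes 9 were lower (7.37% of all genes) and 0 higher (8.81%) at an unadjusted p-value under 0.05, and DESeq2 and limma-voom called 0 higher as well. COA6, a copper-handling assembly factor of complex IV, was at 34.9, 35.8, 36.5 and 37.1 CPM with control siRNA and 32.0, 31.7, 33.3 and 32.1 CPM with A20 siRNA (log2 fold change -0.16, adjusted p = 0.0337). NDUFA4, a complex IV subunit named for complex I, was at 112.9, 117.3, 121.6 and 121.3 CPM with control siRNA and 110.4, 112.2, 99.8 and 96.0 CPM with A20 siRNA (log2 fold change -0.17, adjusted p = 0.0416). Neither gene overlapped between groups. Both calls were lost when control replicate 2, 3 or 4 or A20 siRNA replicate 3 or 4 was left out (adjusted p = 0.0863 to 0.126 for COA6 and 0.111 to 0.150 for NDUFA4), and that of COA6 also without A20 siRNA replicate 1 (adjusted p = 0.0534) and in DESeq2 (adjusted p = 0.0515). The isoforms COX4I2, COX6A2, COX7B2 and COX8C, known from lung, muscle or testis, had no count in any sample, and 3 counts in a sample would be 0.0877 to 0.141 CPM. Of 9 transcriptional regulators of respiratory genes 8 were tested, and edgeR called 0. At an unadjusted p-value under 0.05, 2 of 8 were higher (8.81% of all genes) and 0 lower (7.37%). These were the coactivators PPRC1 (157 ± 2.35 and 165 ± 1.83 CPM, SD, n = 4 each; log2 fold change 0.07, adjusted p = 0.109) and PPARGC1B (log2 fold change 0.11, adjusted p = 0.154). The factors whose letters were searched, named here after their values were seen, were NRF1, GABPA and YY1, with log2 fold changes of -0.06, 0.02 and 0.0082 (adjusted p = 0.495, 0.812 and 0.922).

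The abundance of the 39 transcripts differed far more between genes than between groups. Per kilobase of MANE Select transcript in control samples, levels spanned 20.7-fold. The highest were ATP5F1B (526 ± 14.9 CPM per kilobase, SD, n = 4), UQCRH (352 ± 7.36), COX4I1 (304 ± 9.08) and ATP5MC2 (284 ± 15.9). COX4I1 and ATP5MC2 overlapped within 1 SD, whereas ATP5F1B and UQCRH were apart from the next gene by more than their SDs. The lowest were UQCRB (25.4 ± 0.740), UQCR11 (28.8 ± 1.47) and UQCRFS1 (30.4 ± 1.54), of which UQCR11 and UQCRFS1 did not differ beyond their spread. All these levels per kilobase, and so their order, depend on the annotated transcript lengths. The reference transcript of UQCRB is 8459 bases long. That of ATP5F1A is 5761 bases long, which puts its 723 CPM in controls at 126 CPM per kilobase. Of the 39 genes 20 were above 100 CPM per kilobase.

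**Figure D3:**
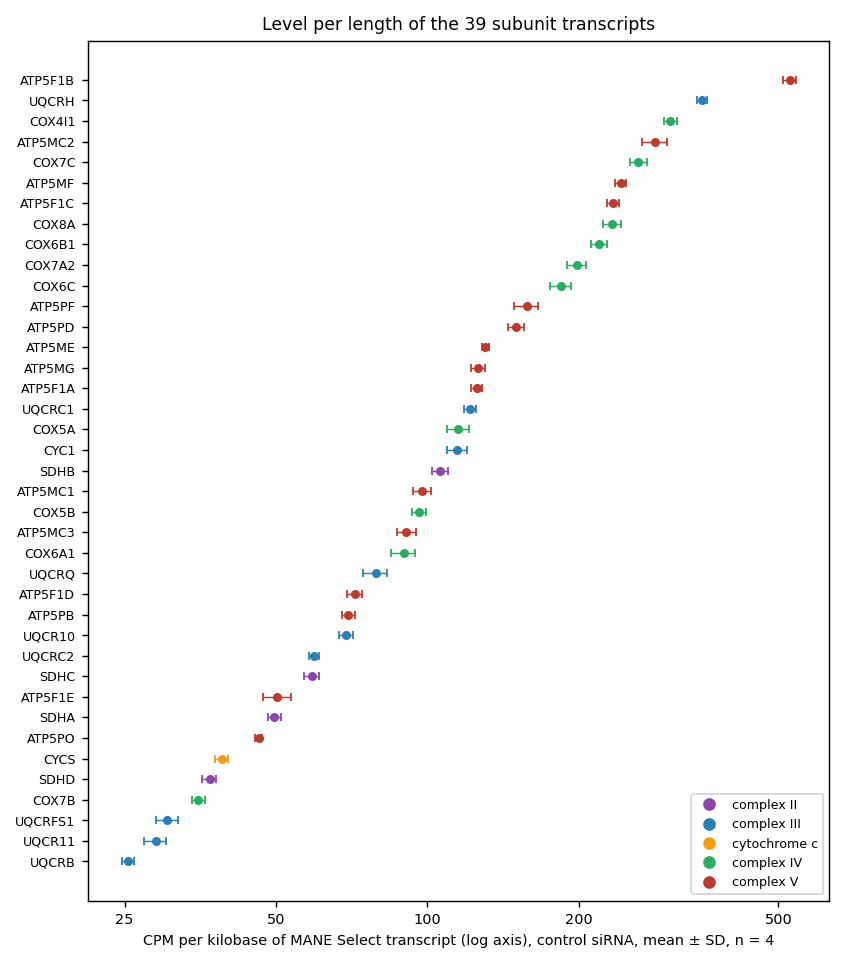
Level of each of the 39 transcripts in control siRNA samples, as CPM per kilobase of MANE Select transcript on a log axis (mean ± SD, n = 4), ordered by level and colored by complex. ATP5F1B is highest at 526 and UQCRB lowest at 25.4, and the complexes are interspersed.

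Counting affects some of these genes more than others. Only uniquely mapping reads were counted, and 31 of the 39 genes have annotated pseudogene copies, 173 in all. Reads counted on those copies came to a median of 0.0448% of the reads on the gene itself, and SDHA alone exceeded 5%, at 7.04%. Reads that map equally well to a gene and a copy were counted on neither. These shares therefore do not measure how many reads a gene lost to its copies. The nearly identical intronless copy UQCRHL, named here after its values were seen, was at 5.46 ± 0.705 and 4.40 ± 0.879 CPM (SD, n = 4 each). Exons of 11 of the 39 genes overlap with another gene on the same strand, COX8A and ATP5MC2 among them, and 12 overlap with a gene on the opposite strand. The strand setting of the counting is not given in the sources used here, so reads in such overlaps cannot be assigned with certainty.

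Levels of the 39 genes mostly varied in the same direction between samples. Over deviations from the group means in 8 samples, the mean correlation between pairs of the 39 genes was 0.46, and 645 of 741 pairs were above 0. Over all genes tested the mean was 0.00054. These genes share libraries and short transcripts. Their MANE Select transcripts had a median length of 1101 bases, where that of all tested genes was 3384, and 18 of 39 were under 1000 bases against 5.44% of tested genes. Longer transcripts had higher fold changes, with a rho of 0.29 (Spearman) over 11223 genes, which are not independent of each other. The mean correlation between the 39 genes was 0.39 after correction on exonic length and 0.14 after correction on MANE Select length.

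The level of the respiratory genes and the length trend were set side by side for each sample. The median deviation of the 39 genes from their own 8-sample mean was -0.0056, 0.05, 0.03 and 0.09 (log2) in control replicates 1 to 4 and -0.01, 0.0023, -0.06 and -0.09 in A20 siRNA replicates 1 to 4. Over the 11223 tested genes with a MANE Select transcript, deviations were correlated with its length. Spearman's rho was 0.17, -0.28, -0.14 and -0.33 in the controls and 0.11, -0.12, 0.23 and 0.34 with A20 siRNA. With exonic length over 13316 genes, rho was weaker, at 0.09, -0.17, -0.11 and -0.20 in the controls and 0.08, -0.08, 0.16 and 0.19 with A20 siRNA. Control replicate 4 had the highest respiratory level and the most negative length trend, and A20 siRNA replicate 4 the lowest level and the most positive trend. In control replicate 1 and A20 siRNA replicates 1 and 2 the respiratory level was near 0, and in the first and last of these the trend had the other sign than in the fellow replicates. After correction on exonic length the medians were -0.02, 0.05, 0.03 and 0.07 in controls and -0.01, -0.0043, -0.06 and -0.08 with A20 siRNA, close to the uncorrected values. After correction on MANE Select length they were -0.0056, 0.04, 0.0037 and 0.03 in controls and 0.0014, -0.01, -0.03 and -0.03 with A20 siRNA. Control replicate 1 was below A20 siRNA replicate 1 after either correction and above it without correction. Either correction is estimated from the same samples and removes differences that scale with the length used, whatever their source. The paper gives a range of RNA integrity numbers over all samples but no value for each sample. RNA quality per sample was not analysed here, and its part in the result was not tested.

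**Figure D4:**
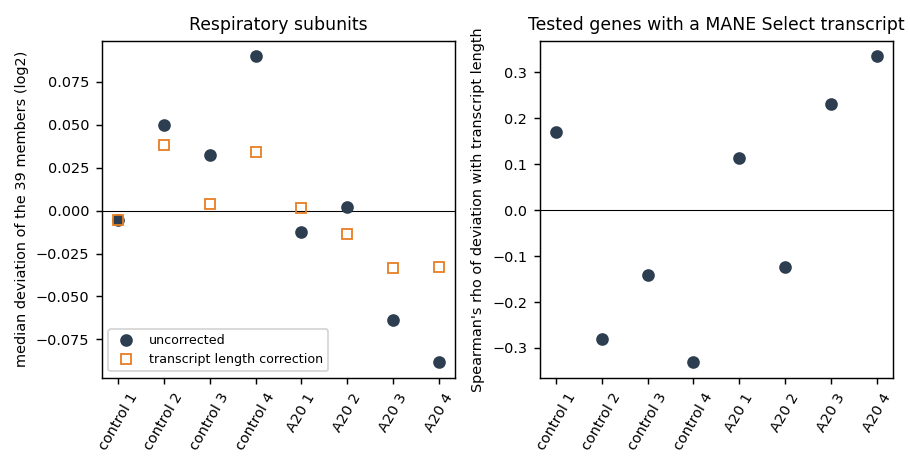
Left, median deviation (log2) of the 39 respiratory genes from their 8-sample mean in each sample, uncorrected (filled) and after correction on MANE Select length (open squares), the correction that moved the medians more. Right, Spearman's rho between deviation and MANE Select length in the same samples, over the tested genes with such a transcript. Samples with negative rho have positive medians, from 0.09 in control replicate 4, and those with the highest rho have the lowest, to -0.09 in A20 siRNA replicate 4.

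**Figure D5:**
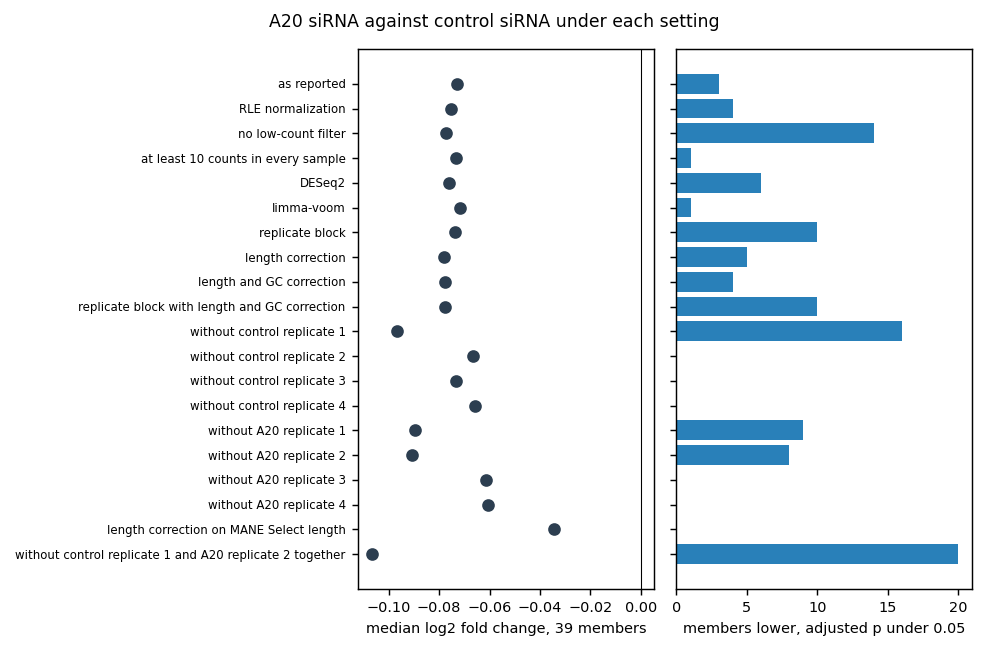
Median log2 fold change of the 39 genes (left) and number of them called lower at an adjusted p-value under 0.05 (right) under each processing setting on the y axis. The medians lie between -0.11 and -0.03 and the counts between 0 and 20.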

How the data were processed

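Total RNA from 8 RKO samples was sequenced after poly(A) capture. The authors used Trimmomatic to trim reads and STAR to map them to GRCh38.p7, and they deposited raw counts of uniquely mapping reads per GENCODE gene, which are not normalized. Tool versions, the GENCODE release and the strand setting are not given in the sources used here. Total counts ranged from 21226451 to 34194273 per sample, and 3 counts equal 0.0877 to 0.141 CPM (counting error only). Identifiers were matched without version to GENCODE 44, from which symbols, coordinates and lengths were taken (56948 of 57992 matched). SCO2 had no matching identifier.

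Genes were kept by edgeR's filterByExpr (minimum count 10), normalized by TMM and tested with edgeR 4.0.16 (quasi-likelihood, no covariates, R 4.3.3), with Benjamini-Hochberg adjustment over 13412 genes and a threshold of 0.05. DESeq2 1.42.0, limma-voom (limma 3.58.1) and the other settings are described in the closing section. Length corrections were loess trends per sample (span 0.5). The named genes were all 39 members, TNFAIP3, the 6 mitochondrial subunits, and, of the assembly, isoform and regulator lists, those with an adjusted p-value under 0.05, the 2 of smallest p-value in each direction and those with no count. Members and lists were chosen with earlier results of these data known. Counts of every replicate pair differed beyond sampling noise (chi-square per degree of freedom 1.31 to 3.69). The pipeline was tested on simulated data.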

Additional observations from a re-analysis of the deposited data

Results flagged for a closer look

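For the 39 genes, TNFAIP3 and the 6 mitochondrial genes, 5 of 92 sets of 4 replicates held a sample far from the other 3. Chance flags about 1 in 20 such sets, or 4.6 here. SDHB in A20 siRNA replicate 3 was at 107.5 CPM, above the 105.7 to 106.0 CPM of the other replicates. ATP5MG in A20 siRNA replicate 2 was at 143.2 CPM, above 131.8 to 132.7 CPM and within the control range. TNFAIP3 in A20 siRNA replicate 2 was at 3.01 CPM, below 3.40 to 3.47 CPM. In control replicate 2, MT-CYB was at 949.6 CPM, below 1111 to 1134 CPM, and MT-CO2 was at 888.5 CPM, below 1015 to 1032 CPM. The gap to the nearest replicate was 0.838, 0.919, 0.847, 0.874 and 0.879 of the range of the set, in that order.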

How the results depend on the processing

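Of 39 genes 3 were called lower and 0 higher as reported. Percentages are the share of all genes called lower in the same fit, 0.611% as reported. The number lower was 4 with RLE normalization (0.708%) or length and GC correction (0.984%), 14 without the filter on low counts (1.08%), 1 with at least 10 counts in every sample (0.602%), 6 in DESeq2 (0.805%), 1 in limma-voom (0.626%) and 5 with correction for exonic length (1.11%). With the replicate number as a block it was 10 (1.58%), and 10 (1.8%) for the replicate block with length and GC correction. Of the 6 mitochondrial genes 5 were called higher in each of those block fits, against 3 as reported. Of all 13412 genes, 262 were called higher with the block alone and 218 with block, length and GC correction, against 85 as reported. The fit as reported did not pair samples by number. Over deviations of the tested genes from their group means, same-numbered samples correlated at 0.10, 0.048, 0.063 and -0.023. Values over so many genes cannot decide whether same-numbered samples share a source. The summed mitochondrial genes were lowest in replicate 2 of both groups (6598 CPM with control siRNA and 7895 CPM with A20 siRNA). Whether the numbers pair samples was not tested. Leaving out single samples gave 0 to 16 lower (0.0443% to 3.18%) and a median log2 fold change from -0.10 to -0.06. Among alternatives chosen after seeing the data, the MANE Select length correction gave 0 lower (0.805%), and leaving out control replicate 1 and A20 siRNA replicate 2 together gave 20 (3.61%). The median was below 0 and 0 genes were called higher in all 19 alternatives, and the log2 fold change of TNFAIP3 kept its call in each. Genes near 0 changed sign. With the MANE Select length correction SDHB was at 0.028, UQCRC2 at 0.014, COX6A1 at 0.057, COX6B1 at 0.0029 and ATP5PF at 0.031 (log2). With block, length and GC correction COX6A1 was at 0.0027. Without the named pair of samples UQCR11 was at -0.038, ATP5F1C at -0.0064 and ATP5MF at -0.020. Leaving out single samples, UQCRC2 ranged from -0.024 to 0.0059, UQCR11 from -0.032 to 0.027, COX6A1 from -0.049 to 0.024, ATP5F1C from -0.012 to 0.016, ATP5PB from -0.033 to 0.0013 and ATP5MF from -0.013 to 0.021. ATP5MC2 passed in 13 of 19 alternatives, COX5B in 11 and COX8A in 10. These fits show how values moved with the length corrections and the samples left out, and the cause of the shifts was not tested.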
